A study of Mus musculus with 24 samples.

Results

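The nucleus accumbens (Acb) is the ventral part of the striatum, and most of its neurons are GABAergic medium spiny neurons (MSNs). Here, heavy polysomal fractions and whole lysates of the wild-type Acb were compared gene by gene, to see which mRNA classes were rich or poor in heavy polysomes of the normal tissue. The comparison rests on 6 of the 24 libraries of the series, 3 heavy polysomal and 3 whole lysate libraries with replicate numbers 1 to 3, and the other 18 come from dorsal striatum (DS) or from rpS6 knockin mice. The mice were wild-type littermates, of both sexes, from a line bred to carry unphosphorylatable ribosomal protein S6 (rpS6), on a mixed C57Bl/6, Sv129 and ICR background. The labels name no drug treatment, and the age of the mice is not given in the sources used here. Tissue of several mice was pooled for each replicate. Tissue was homogenized in a buffer with cycloheximide, which holds ribosomes on mRNA. A small volume of the lysate was kept as the whole lysate, called total below, while the rest was spun and run on a sucrose gradient, and the fractions with more than 4 ribosomes per RNA, as the labels put it, or 4 and more, as the methods do, were taken as heavy. By the methods a heavy library pools fractions of 2 such samples, so a match of heavy and total libraries by number is inferred and not stated.

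Ribosomes load onto an mRNA one after another, and an RNA that carries many of them sediments deep in a sucrose gradient. RNA with no ribosome, with a few, or inside a repressed particle stays near the top. A heavy over total ratio compares the share of an RNA in the deep fractions with its share in the lysate. It depends on how many copies are translated and also on how many ribosomes the coding region can hold, since a very short coding region cannot hold many. Neurons are known for local translation in dendrites, for which RNA is carried in translationally silent granules.

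All ratios below are log2 ratios of heavy over total, fitted with the replicate number as a block, and levels are read counts scaled to library size (CPM) with the factors of edgeR's TMM method, a trimmed mean of gene-wise ratios. Errors of ratios are standard deviations (SD) of the log2 ratios of the 3 pairs of libraries. A gene was called polysome-rich or polysome-poor when its ratio passed an adjusted p under 0.05 in edgeR's quasi-likelihood test. Heavy libraries held 18223208 to 34703044 assigned reads and total libraries 9280589 to 18177175. A ratio describes a share within each library, so it says nothing of the whole amount of RNA in either. In bulk tissue a ratio also averages over cell types, and fewer cells of a type and less RNA per cell cannot be told apart.

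*Bc1* is a short non-coding RNA of neurons that is transcribed by RNA polymerase III, is transported into dendrites and is known as a repressor of translation initiation. It is annotated on chromosome 7, plus strand, and its sequence is shown because this single RNA filled much of the total libraries. In the GENCODE M21 annotation (GRCm38) it spans chr7:144914470-144914637 as 1 exon of 168 bases. The capitals mark its longest run of A, 23 bases.
Bc1: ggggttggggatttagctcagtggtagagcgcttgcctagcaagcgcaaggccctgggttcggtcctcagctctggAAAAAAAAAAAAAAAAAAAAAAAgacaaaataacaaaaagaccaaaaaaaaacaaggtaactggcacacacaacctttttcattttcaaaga
Of the reads assigned to genes, *Bc1* took 18.1%, 19.1% and 25.6% in total libraries 1 to 3, but 3.0%, 2.10% and 0.933% in the heavy libraries. Its level was 27762, 19634 and 8308 CPM in heavy polysomal fractions and 189364, 202009.7 and 300219.7 CPM in whole lysates, and the groups were far apart. The log2 ratio of *Bc1* was -3.75 ± 1.25 (adjusted p 1.17e-227, edgeR with Benjamini-Hochberg adjustment), a 13.4-fold lower level in heavy polysomal fractions. Among the heavy libraries, replicate 1 held the most *Bc1* and replicate 3 the least.

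**Figure D1:**
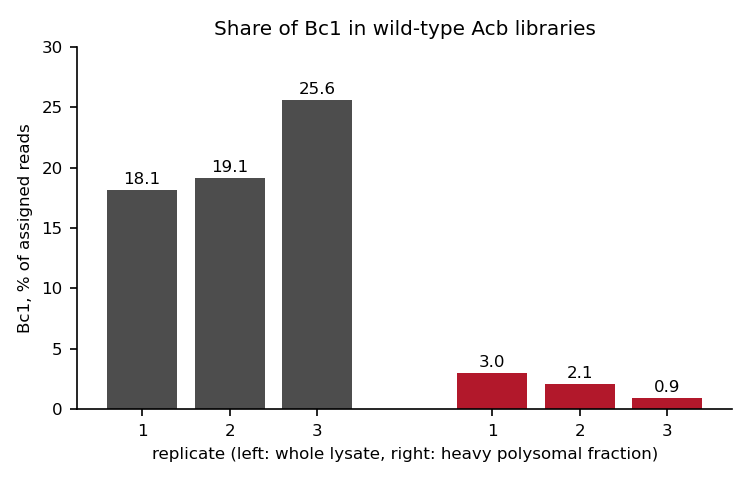
Bars give the percentage of assigned reads that belonged to *Bc1* in each of the 6 wild-type Acb libraries, 3 of whole lysates (grey) and 3 of heavy polysomal fractions (red). Shares of 18.1 to 25.6% in whole lysates stand against 0.933 to 3.0% in heavy polysomal fractions.

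Because *Bc1* took up to 25.6% of a total library, all other RNAs had less room there, and the scaling decided where a ratio of 0 lay. TMM leaves extreme genes such as *Bc1* out of the scaling, and the median log2 ratio over all genes tested was 0.07. Removing *Bc1* from the table first moved this median to 0.06, and scaling to the library total without *Bc1* moved it to 0.01. Scaling to the library total with *Bc1* kept moved it to 0.32, a shift of 0.25, so that ratios below hold relative to the TMM scale. With that last scaling 3787 genes were polysome-rich and 1212 polysome-poor, a share of 75.8% rich among the calls in place of 51.4%.

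Among 16043 genes with at least 15 reads over the 6 libraries, 2372 (14.8%) were polysome-rich and 2247 (14%) polysome-poor, together 28.8% of the genes tested (edgeR, Benjamini-Hochberg). A log2 ratio of 1 or more was reached by 389 of the rich genes (2.42% of genes tested) and one of -1 or less by 696 of the poor genes (4.34%). The 3 heavy and the 3 total libraries did not overlap for 38.3% of all genes tested and for 4179 of the 4619 called genes (90.5%). Another 440 called genes overlapped, and 159 had a pair that went the other way. In this fit the prior degrees of freedom were infinite, which means that the p-values took their spread from the trend over genes of like abundance and not from each gene's own replicates. *Tmem38b*, chosen after its values were seen, shows what this allows, since it was called with 1020.4, 607 and 47.1 CPM in heavy and 89.5, 49.0 and 139 CPM in total libraries, where the groups overlap. Without replicate 1, 1390 genes were rich and 1481 poor. Log2 ratios of the 3 pairs followed each other with Spearman rho of 0.544 to 0.635 across the 12189 genes with at least 50 reads on average, given as a description, since genes are not independent replicates.

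Ratios fell with the length of the encoded protein. The median log2 ratio was 0.58 for the 1572 genes whose annotated protein has 100 to under 200 amino acids and 0.40 for the 4328 genes with 200 to under 400. It was -0.02 for 5548 genes with 400 to under 800 amino acids, -0.41 for 2552 genes with 800 to under 1600, and -0.80 for 682 genes with 1600 or more. On the linear scale the heavy over total ratio at the median thus went from 1.50 for proteins of 100 to under 200 amino acids to 0.574 for the longest. Of the genes with 100 to under 200 amino acids, 653 (41.5%) were rich and 86 (5.47%) poor, while of those with 1600 or more 5 (0.733%) were rich and 390 (57.2%) poor.

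**Figure D2:**
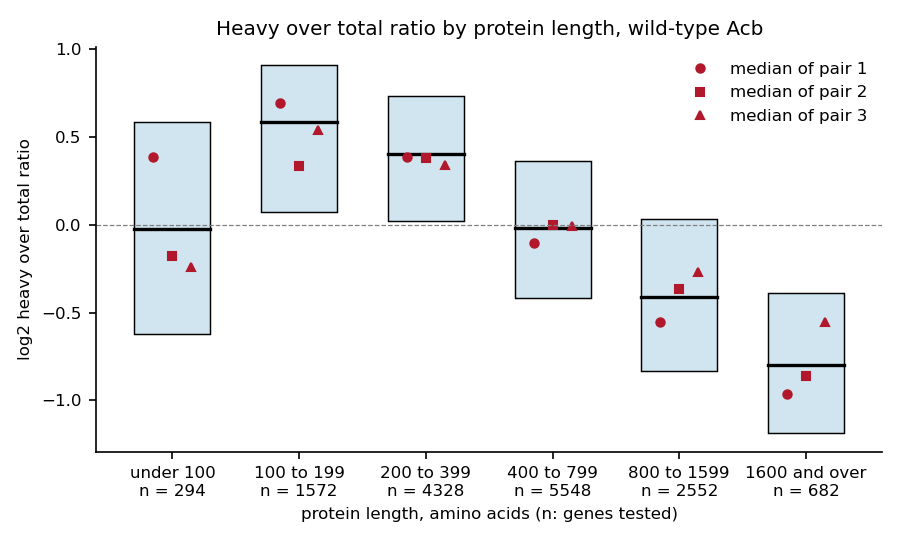
Log2 heavy over total ratios in 6 classes of protein length, with boxes from the lower to the upper quartile of the genes, black lines at the median of the fitted ratios, and red symbols at the median of each pair of libraries. Medians fell from 0.58 at 100 to under 200 amino acids to -0.80 at 1600 and over, and below 100 amino acids the 3 pairs spread from -0.24 to 0.39.

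The order of the classes from 100 amino acids upward was the same in pairs 1 and 3, and in pair 2 the classes of 100 to under 200 and of 200 to under 400 were close, at 0.34 and 0.38. Across 11841 genes with at least 50 reads on average, Spearman rho between protein length and the ratio was -0.561, and it was -0.642, -0.424 and -0.387 in pairs 1, 2 and 3. Transcript length gave -0.396. The lengths of the 5' and 3' untranslated regions gave -0.03 and -0.07, and the GC content of the coding region 0.01. These correlations are descriptions across genes that share the same 6 libraries. As shares of reads other than *Bc1*, genes with 100 to under 200 amino acids took 21.2%, 18.1% and 21.6% of the heavy libraries and 13.8%, 14.4% and 15.2% of the total libraries. Genes with 1600 or more amino acids took 2.55, 2.38 and 2.69% of the heavy and 5.19, 4.65 and 4.18% of the total libraries, again without overlap.

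The shortest coding regions did not follow this slope. Of 9 genes tested with fewer than 50 amino acids, 6 were poor and 0 rich, with a median log2 ratio of -1.51. At 50 to 74 amino acids 33 of 83 genes were poor and 8 rich (median -0.32), and at 75 to 99 amino acids 33 of 202 were poor and 51 rich (median 0.22). For the 294 genes under 100 amino acids together the median was -0.02, and it was 0.39, -0.18 and -0.24 in pairs 1, 2 and 3, so that its sign depended on the pair. Heavy replicate 1, which held the most *Bc1*, also held the largest share of reads in this class, 3.92% against 2.53% and 2.96% in heavy replicates 2 and 3. The part of that library in the result was not tested beyond leaving it out.

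Coding regions of some short genes are printed here, from start to stop codon in the GENCODE M21 transcripts (GRCm38), because genes of this class were called in both directions. The first 2 were polysome-poor and the next 2 polysome-rich. The last 2 are selenoproteins, which read a TGA inside the coding region as selenocysteine. Capitals mark the start codon, the stop codon and, in the selenoproteins, that internal TGA.
Rpl41: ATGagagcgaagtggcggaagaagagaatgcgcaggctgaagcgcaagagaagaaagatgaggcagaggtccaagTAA
Tmsb10: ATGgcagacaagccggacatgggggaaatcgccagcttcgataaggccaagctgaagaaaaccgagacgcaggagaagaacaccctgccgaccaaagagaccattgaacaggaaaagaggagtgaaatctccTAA
Nrgn: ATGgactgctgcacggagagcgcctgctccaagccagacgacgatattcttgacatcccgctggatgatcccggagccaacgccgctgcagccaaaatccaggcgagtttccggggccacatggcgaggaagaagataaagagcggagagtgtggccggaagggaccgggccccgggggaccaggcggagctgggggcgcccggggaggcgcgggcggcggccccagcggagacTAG
Npy: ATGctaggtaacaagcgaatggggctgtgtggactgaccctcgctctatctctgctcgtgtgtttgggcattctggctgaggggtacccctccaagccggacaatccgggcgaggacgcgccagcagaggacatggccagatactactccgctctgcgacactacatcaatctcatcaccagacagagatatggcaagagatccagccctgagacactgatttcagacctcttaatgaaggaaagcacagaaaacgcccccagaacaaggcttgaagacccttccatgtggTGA
Sepw1: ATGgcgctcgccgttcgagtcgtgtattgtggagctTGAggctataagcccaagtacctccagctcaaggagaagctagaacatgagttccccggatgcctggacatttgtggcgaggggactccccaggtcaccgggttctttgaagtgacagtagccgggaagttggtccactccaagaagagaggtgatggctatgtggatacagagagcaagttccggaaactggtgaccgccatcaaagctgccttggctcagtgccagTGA
Selk: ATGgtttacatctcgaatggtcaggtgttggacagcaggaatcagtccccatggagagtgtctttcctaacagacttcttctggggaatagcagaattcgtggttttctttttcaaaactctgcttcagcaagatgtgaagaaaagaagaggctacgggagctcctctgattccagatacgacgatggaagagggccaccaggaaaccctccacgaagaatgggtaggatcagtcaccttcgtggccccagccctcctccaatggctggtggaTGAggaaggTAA
The transcripts lie at chr10:128548114-128549305 (*Rpl41*, minus strand), chr6:72957353-72958302 (*Tmsb10*, minus), chr9:37544492-37552904 (*Nrgn*, minus), chr6:49822710-49829507 (*Npy*, plus), chr7:15917208-15922402 (*Sepw1*, minus) and chr14:29968308-29975662 (*Selk*, plus).

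*Rpl41* encodes the shortest protein of the ribosome, 25 amino acids from 78 bases. Its level was 194, 128 and 89.4 CPM in heavy and 660.3, 609 and 818 CPM in total libraries, with no overlap (log2 ratio -2.40 ± 0.73, adjusted p 1.00e-49, edgeR with Benjamini-Hochberg adjustment). *Rps29*, a protein of the small ribosomal subunit with 56 amino acids, had 276, 171 and 115 against 827, 875 and 1147 CPM (-2.41 ± 0.87). *Tmsb10*, thymosin beta 10, a 44 amino acid protein that binds actin monomers, had 175, 91.8 and 71.5 against 273, 262 and 371 CPM (-1.51 ± 0.87). In each of these 3 genes heavy replicate 1 was the highest heavy library and still lay below every total library. *Tmsb4x*, its relative of the same length, was called as well (-0.84 ± 0.87), but at 1067, 555 and 379 CPM its heavy library 1 reached the range of the total libraries, 997, 1107 and 1159 CPM. *Atp5e*, the epsilon subunit of ATP synthase with 52 amino acids, was poor too (-0.87 ± 0.54). *Gm20594*, a predicted gene with 37 amino acids, had the lowest ratio among called genes of the class, -3.13 ± 0.76, with 59.4, 36.3 and 20.2 against 306, 323 and 301 CPM.

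Other short proteins were polysome-rich. *Npy*, the precursor of neuropeptide Y (97 amino acids), had 143, 127 and 149 CPM in heavy and 45.45, 57.6 and 59.97 CPM in total libraries, with a log2 ratio of 1.37 ± 0.26 and no overlap. *Nrgn*, neurogranin, a calmodulin-binding protein of dendritic spines (78 amino acids), had 901, 721 and 726 against 494, 444 and 520.2 CPM (0.68 ± 0.19). A pair of short selenoproteins went opposite ways. *Sepw1*, a small selenoprotein of 88 amino acids with its internal TGA at codon 13 of 89, had 255, 163 and 124 CPM in heavy and 916, 892 and 955 CPM in total libraries (-2.41 ± 0.55). *Selk*, a selenoprotein of the endoplasmic reticulum with 94 amino acids and its TGA at codon 92 of 95, had 285, 254 and 274 against 114.2, 124.9 and 138.9 CPM (1.11 ± 0.19). Of the 19 selenoprotein genes tested, 5 were rich and 3 poor (median 0.32), and *Gpx4*, a peroxidase that protects membrane lipids, was among the poor (-0.99 ± 0.69).

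**Figure D3:**
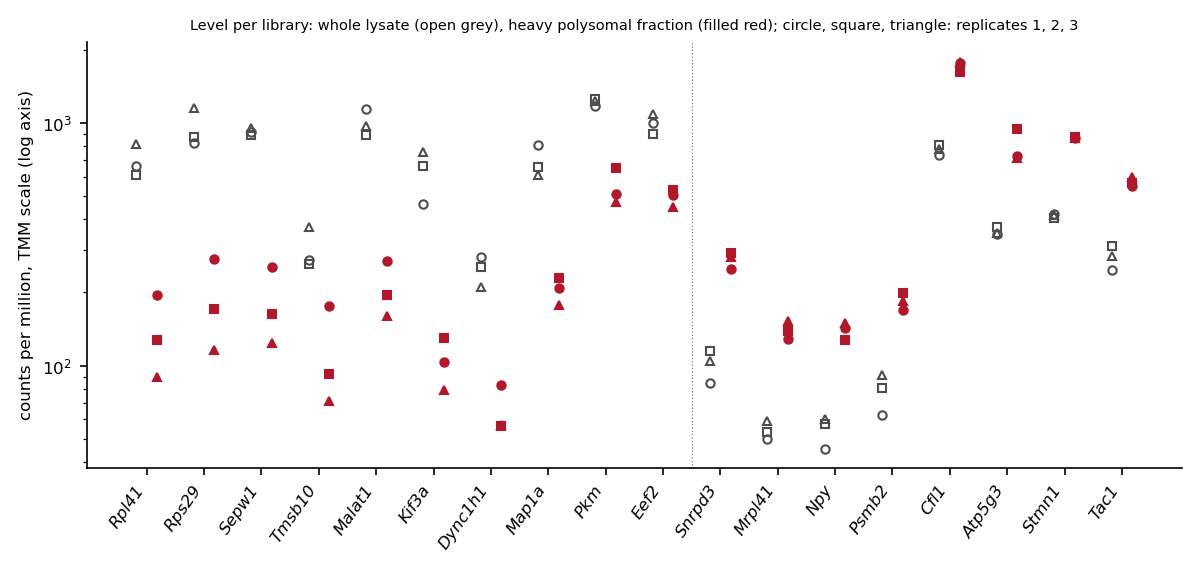
Levels of 18 genes in each of the 6 libraries, in CPM on the TMM scale, on a log axis, with whole lysates as open grey and heavy polysomal fractions as filled red symbols. The 10 genes left of the dotted line were polysome-poor and the 8 right of it polysome-rich, and in each of them the groups do not overlap.

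Over all genes tested 14.8% were rich and 14% poor, the shares to set beside each list count below. Ribosomal protein genes were more often poor than rich in heavy polysomes. Of 49 genes of the large ribosomal subunit, 27 were poor and 4 rich (median log2 ratio -0.52), and of 34 genes of the small subunit 21 were poor and 0 rich (-0.52). The medians were -0.18, -0.49 and -0.68 for the large and -0.25, -0.54 and -0.89 for the small subunit in pairs 1, 2 and 3. Reads of some ribosomal protein genes are uncertain because near-identical pseudogenes exist. The lowest members with enough reads were *Rpl41* and *Rpl37* (-1.34 ± 0.44) in the large and *Rps29* and *Rps28* (-2.05 ± 0.86) in the small subunit, all with under 100 amino acids, but *Rps12*, with 132 amino acids and chosen after its values were seen, was close to *Rps28* (154, 106 and 87.6 against 389, 402 and 521 CPM, -1.94 ± 0.62). *Rpl27* (0.53 ± 0.29) and *Rpl7l1*, a paralog of *Rpl7* (0.85 ± 0.27), were the highest of the large subunit list. Both lists were made by gene symbol, and the small subunit list holds *Rps4l*, which RefSeq lists as a transcribed pseudogene. *Rps6*, which encodes rpS6, had 361, 406 and 319.8 CPM in heavy and 412, 467 and 514 CPM in total libraries, and although these did not overlap its ratio of -0.36 ± 0.28 missed the threshold (adjusted p 0.0507, edgeR with Benjamini-Hochberg adjustment).

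Ribosomal proteins and the factors below belong to the TOP mRNAs, which start with a pyrimidine tract and are controlled together by mTOR. Of 14 elongation factors and other TOP mRNAs outside the ribosome, 6 were poor and 1 rich (median -0.26). *Eef1a1*, elongation factor 1 alpha, had 2297, 2233 and 1848 against 3953, 4095 and 4632 CPM (-0.99 ± 0.29), and *Eef2*, which moves the ribosome along the mRNA, had 504, 528 and 451 against 1002, 902 and 1089.8 CPM (-1.01 ± 0.25). *Pabpc1*, the poly(A)-binding protein, was the lowest of them (-1.41 ± 0.40). *Eif5a* was rich (0.67 ± 0.19), whereas *Tpt1*, another TOP mRNA, had a ratio of -0.11 ± 0.35 and *Npm1* one of -0.04 ± 0.47, both short of the threshold.

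Initiation factors went both ways. Of 39 genes 16 were rich and 7 poor (median 0.19). *Eif1a*, which helps the small subunit scan, and *Eif4e*, which binds the cap, were rich, with log2 ratios of 1.17 ± 0.18 and 1.09 ± 0.08. The long scaffolds *Eif4g1* and *Eif4g3*, which join cap-binding protein and small subunit, were poor (-1.25 ± 0.09 and -1.22 ± 0.16). Cytosolic tRNA ligases, which charge tRNAs with amino acids, had 13 poor and 0 rich genes among 20 (median -0.65). *Aars*, the alanine ligase, went from 115, 109.9 and 102 CPM in total to 39.5, 50.1 and 34.6 CPM in heavy libraries (-1.41 ± 0.24), and *Hars*, for histidine, had 0.07 ± 0.29, which did not pass.

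Genes of mitochondrial ribosomes, by contrast, were mostly rich. Of 77 genes tested 52 were rich and 1, *Mrps24* (-1.07 ± 0.09), was poor, with a median of 0.65 and pair medians of 0.79, 0.63 and 0.58. *Mrpl41*, a protein of the large mitochondrial subunit, had 129, 139 and 152 CPM in heavy and 49.6, 53.4 and 59.1 CPM in total libraries, with a log2 ratio of 1.37 ± 0.01. Cytosolic and mitochondrial ribosomal proteins are of like length, with median lengths of 160 and 146 amino acids for the cytosolic subunits and 192 for the mitochondrial ribosome.

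The nuclear-encoded subunits of oxidative phosphorylation were more often rich than poor. In complex I, which takes electrons from NADH, 23 of 37 genes were rich and 4 poor (median 0.64). *Ndufs4* and *Ndufc2* were the highest, with ratios of 1.17 ± 0.27 and 1.15 ± 0.30, and *Ndufs1*, its longest core subunit in this list, was poor (-0.84 ± 0.26). In complexes III and IV, which pass electrons on to oxygen, 9 of 24 genes were rich and 3 poor, and the median of 0.31 ranged from 0.70 in pair 1 to -0.11 in pair 3. *Cox5a* (1.01 ± 0.53) and *Uqcrb* (0.95 ± 0.49) led this list. *Uqcr10* and *Cox8a*, with 64 and 69 amino acids, were called poor (-0.58 ± 0.67 and -0.71 ± 1.10), but their heavy and total libraries overlapped. *Cox7c*, with 63 amino acids, had -0.34 ± 0.54 and was not called. In complex V, the ATP synthase, 12 of 18 genes were rich and 3 poor (median 0.81). *Atp5g3*, a subunit of its membrane ring, had 731, 938 and 719 against 349, 371 and 350.1 CPM (1.15 ± 0.17), while *Atp5a1*, the alpha subunit of its catalytic head, was poor (-0.73 ± 0.36).

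Glycolytic enzymes stood against these mitochondrial genes. Of 15 genes 10 were poor and 2 rich, with a median of -0.46 and pair medians of -0.46, -0.10 and -0.83. *Pkm*, pyruvate kinase, had 509, 649 and 473 CPM in heavy and 1171, 1256 and 1227 CPM in total libraries (-1.18 ± 0.21), and *Hk1*, hexokinase, which starts the pathway, was the lowest (-1.37 ± 0.24). The rich members were *Tpi1* (0.66 ± 0.23) and *Pgam1* (0.49 ± 0.17), which with 299 and 254 amino acids encode 2 of the shorter enzymes of the pathway. *Gapdh*, often used as a reference gene, had 475, 619.8 and 381 against 498, 556 and 583 CPM (-0.17 ± 0.40, not called). The tricarboxylic acid cycle was divided, with 5 rich and 6 poor genes of 18 (median 0.03), among them the rich *Sdhb* (0.94 ± 0.17) and *Sdhd* (0.93 ± 0.23) of succinate dehydrogenase and the poor *Ogdh* (-0.84 ± 0.16).

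Protein turnover and folding gave contrasting lists. Proteasome genes were rich in 20 of 39 cases and poor in 2 (median 0.54), with *Psmb2* (169.9, 198 and 185 against 62.5, 80.7 and 91.7 CPM, 1.25 ± 0.22) and *Psmb6* (1.17 ± 0.29) of the catalytic core among the rich, and with *Psmd1* (-0.55 ± 0.05) and *Psmd2* (-0.60 ± 0.27), the largest subunits of the cap, as the poor ones. Chaperonin and prefoldin, which fold actin and tubulin, had 7 poor and 3 rich genes of 14 (median -0.41). The chaperonin subunits *Tcp1* (-0.80 ± 0.13) and *Cct3* (-0.71 ± 0.35) were poor, and the prefoldin subunits *Vbp1* (1.10 ± 0.33) and *Pfdn4* (0.85 ± 0.54) rich. HECT and other large ubiquitin ligases, which mark proteins for degradation, held 11 poor and 0 rich genes of 16 (median -0.996). *Ubr4*, with 5180 amino acids, went from 163, 142 and 124 CPM in total to 58.8, 35.6 and 38.3 CPM in heavy libraries (-1.72 ± 0.26). Vacuolar ATPase genes, which acidify synaptic vesicles and lysosomes, were split 6 rich to 3 poor of 19 (median 0.26), between *Atp6v1g2* (0.85 ± 0.36) and *Atp6v1a* (-0.93 ± 0.07).

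Among neuronal genes, long cytoskeletal proteins were mostly poor, and motor proteins were more often poor than rich. Of 20 spectrins, ankyrins and other long cytoskeletal proteins, 15 were poor and 0 rich (median -0.75). *Map1a*, a microtubule-associated protein of dendrites, had 209, 229 and 177 CPM in heavy and 811, 658 and 608 CPM in total libraries (-1.76 ± 0.22), and *Map1b* was alike (-1.68 ± 0.19). *Map2*, the mRNA of which is known from dendrites, had -0.66 ± 0.14 and *Ank2* -0.86 ± 0.14. Motor proteins had 24 poor genes and 1 rich gene of 74 (median -0.64). *Dync1h1*, the heavy chain of dynein, which carries cargo to the cell body, had 83.0, 56.2 and 57.1 against 281, 254 and 211 CPM (-1.94 ± 0.21). *Kif3a*, a kinesin of only 701 amino acids, had the lowest ratio among motors with at least 50 reads on average, with 104, 130.3 and 79.6 against 463, 661 and 758 CPM (-2.58 ± 0.58), a difference of 5.99-fold.

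Small cytoskeletal proteins were divided, with 11 rich and 7 poor genes of 23 (median 0.33). *Cfl1*, cofilin, which severs actin filaments in spines, had 1760.3, 1617 and 1781 CPM in heavy and 737, 808 and 776 CPM in total libraries (1.15 ± 0.13). *Stmn1*, stathmin, which binds tubulin, had 868, 876 and 862 against 421, 404 and 416 CPM (1.07 ± 0.04). *Tubb2a*, a beta tubulin, was poor (-1.09 ± 0.37), and *Actb* was not called (-0.17 ± 0.49). Rab GTPases, which direct vesicle traffic, were rich in 34 of 53 cases and poor in 2 (median 0.57), with *Rab33a* (1.12 ± 0.56) near the top and *Rab15* (-0.46 ± 0.31) among the poor.

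Synaptic vesicle and exocytosis genes gave 16 rich and 16 poor of 66 (median 0.02). The syntaxins *Stx7* (1.03 ± 0.04) and *Stx8* (1.03 ± 0.55) were rich, and *Unc13a*, the long priming factor of vesicles, had 45.0, 39.8 and 45.1 against 151, 136 and 107 CPM (-1.59 ± 0.30). *Sv2c*, a vesicle protein abundant in the basal ganglia, was called poor (-1.15 ± 0.97), with a wide spread between pairs. Of 32 postsynaptic and dendritic mRNAs 13 were poor and 3 rich (median -0.30). *Camk2a*, the kinase subunit with an mRNA known to be transported into dendrites, had 496, 591 and 543 CPM in heavy and 1180.3, 948 and 894 CPM in total libraries (-0.88 ± 0.32), and *Kalrn*, which remodels spines, -0.85 ± 0.41.

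Glutamate and GABA receptors had 5 rich and 8 poor genes of 43 (median 0.06), with *Gabra4*, a receptor subunit of MSNs, rich (0.64 ± 0.37) and *Grin2b*, a subunit of the NMDA receptor, poor (-1.14 ± 0.24). Potassium channels had 8 rich and 4 poor genes of 86 (median 0.16), and *Kcnmb4*, an auxiliary subunit, was among the poor (-0.91 ± 0.53). Sodium, calcium and HCN channels had 2 rich and 14 poor of 41 (median -0.32). Here the rich ones were the auxiliary subunits *Cacnb4* (0.63 ± 0.28) and *Scn2b* (0.42 ± 0.09), and *Cacna1h*, a pore-forming subunit with 2359 amino acids, was poor (-0.98 ± 0.42). *Ryr2*, the calcium release channel with 4966 amino acids, had -0.99 ± 0.11.

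The cAMP pathway through which dopamine acts on MSNs had 8 rich and 3 poor genes of 21 (median 0.25). *Ppp1r1b*, which encodes DARPP-32, had 1489.5, 1658 and 1309 CPM in heavy and 939.9, 959 and 1029 CPM in total libraries (0.60 ± 0.23), and *Arpp19* was the highest (0.82 ± 0.31). *Rgs9*, which ends G protein signals in MSNs, and *Prkar1a*, a regulatory subunit of protein kinase A, were poor (-0.74 ± 0.18 and -0.70 ± 0.24). Neither dopamine receptor was called, with 0.06 ± 0.26 for *Drd1a* and -0.15 ± 0.09 for *Drd2*, and *Adora2a*, the adenosine receptor of the same cells as *Drd2*, had 0.25 ± 0.08. Of the 12 markers of MSNs tested, 4 were rich and 2 poor, with a median of 0.07, as for all genes tested. Their summed level was 6285 to 7686 CPM in heavy and 5026 to 5407 CPM in total libraries. *Ppp1r1b* and *Penk*, with ratios of 0.60 and 0.65, held much of that sum.

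Neuropeptides and granins, which are made as secreted precursors, had 8 rich and 5 poor genes of 22 (median 0.45). *Tac1*, the precursor of substance P, had 547, 565 and 596 against 247, 311 and 283 CPM (1.03 ± 0.15), and *Penk*, the precursor of enkephalins, 1361, 2225 and 1297 against 827, 1105 and 1115 CPM (0.65 ± 0.40). *Sst*, somatostatin, of a class of interneurons, was rich (0.97 ± 0.30), as was *Gal*, galanin, at low levels (10.21, 11.98 and 26.09 against 2.07, 3.06 and 10.1 CPM, 1.86 ± 0.45). *Pdyn*, the precursor of dynorphins, was not called (0.06 ± 0.21). The longer *Vgf* (-1.30 ± 0.37) and *Chga*, a granin (-0.74 ± 0.34), were poor. Interneuron markers were split 3 rich to 3 poor of 7 (median -0.14), the rich ones being *Npy*, *Sst* and *Pvalb*, a calcium-binding protein (0.71 ± 0.32), and the poor ones led by *Nos1* (-2.19 ± 1.41) and *Chat* (-1.33 ± 0.09), the enzymes of nitric oxide and acetylcholine synthesis.

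Immediate early genes, which respond to neuronal activity, had 2 rich and 4 poor of 21 (median -0.23). *Homer1* (0.57 ± 0.22) and *Egr3* (0.45 ± 0.08) were rich, and *Npas4* (-1.21 ± 0.43) and *Jun* (-0.89 ± 0.42) poor. *Arc*, known for local translation in dendrites, had 52.9, 45.5 and 51.8 CPM in heavy and 101, 53.9 and 88.8 CPM in total libraries (-0.66 ± 0.36, called poor), and *Fos* had -0.84 ± 0.43, also called, with overlapping groups. Clock genes were split 4 to 4 of 18 (median 0.14), with the rich *Dbp* (0.89 ± 0.26) and *Nr1d2* (0.67 ± 0.09) against the poor *Per1* (-1.04 ± 0.28) and *Per2* (-0.98 ± 0.10).

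Several classes have sequence elements by which translation is known to be regulated. Of 10 mRNAs with an iron-responsive element, 5 were poor and 0 rich (median -0.96). *Fth1* and *Ftl1*, the chains of ferritin, the iron store, carry this element before the coding region, where it holds back initiation when iron is low. *Fth1* had 548, 520.4 and 394 CPM in heavy and 1091, 1001 and 1335 CPM in total libraries (-1.23 ± 0.46), and *Ftl1* 221, 243 and 189 against 515, 495 and 595 CPM (-1.30 ± 0.32), although both encode proteins of under 200 amino acids, a class with a median of 0.58. mRNAs with upstream open reading frames had 5 rich and 2 poor of 15 (median 0.15), with *Uchl1* rich (0.94 ± 0.39), *Ddit3* poor (-0.78 ± 0.53) and *Atf4*, the transcription factor of the stress response, not called (-0.22 ± 0.56). Polyamine enzymes and antizymes had 4 rich and 0 poor of 9 (median 0.38), led by *Srm* (0.93 ± 0.17) and *Sms* (0.79 ± 0.04). *Oaz1*, an antizyme, had -0.81 ± 1.41 and was not called. In the wild-type DS libraries the level of *Oaz1* was only 2.15 to 6.84 CPM. The 3 metallothioneins, which bind zinc and copper and have 61 to 68 amino acids, were all called poor, from -0.60 ± 0.79 for *Mt1* to -0.82 ± 0.70 for *Mt3*, but their median was 0.01, -0.88 and -1.36 in pairs 1, 2 and 3, and only *Mt3* had groups without overlap.

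Among nuclear proteins, a list of 57 chromatin regulators had a median length of 1716 amino acids. Of these 57 genes 36 were poor and 1, *Setd7* (0.38 ± 0.18), rich (median -0.66). *Ep400*, a chromatin remodeler, had -1.47 ± 0.27. *Prpf8*, the long core protein of the spliceosome, had 32.4, 23.8 and 29.4 CPM in heavy and 155, 141 and 136 CPM in total libraries (-2.34 ± 0.19), the lowest ratio among called genes of 1600 or more amino acids with a mean of 50 reads or more and groups that did not overlap. The small ribonucleoproteins of the same machine were rich in 8 of 23 cases and poor in 0 (median 0.32), with *Snrpd3* (249, 292 and 280.0 against 84.4, 115 and 105 CPM, 1.44 ± 0.11) and *Snrpd1* (1.29 ± 0.08) at the top. Histones had 10 rich and 0 poor genes of 31 (median 0.93), among them the linker histone *Hist1h1c* (1.50 ± 0.42) and *Hist1h2be* (1.22 ± 0.26). Only 31 of 84 histone genes had enough reads to be tested. Their median leaned on genes with few reads. It was 0.91, 0.57 and 0.81 in pairs 1, 2 and 3, and 0.60, 0.48 and 0.28 with 0.5 CPM added to each level. Zinc finger proteins of the Zfp series gave 16 rich and 22 poor of 340 (median -0.01), with *Zfp407* among the poor (-1.42 ± 0.56). SR proteins and CLK kinases, which steer splicing, had 2 rich and 3 poor of 17 (median 0.03), *Srsf3* with 0.69 ± 0.17 and *Srsf9* with -0.68 ± 0.64.

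Non-coding RNAs were seldom rich, and the counts by RefSeq class given next include *Bc1*, which was poor. Of 780 genes that RefSeq lists as long non-coding RNA, 14 (1.79%) were rich and 52 (6.67%) poor, against 15.6% and 14.5% of 15032 protein-coding genes. With at least 50 reads on average, 14 of 240 (5.83%) were rich and 50 (20.8%) poor, against 19.7% and 18.3% of 11879 protein-coding genes, so that at this level the share of poor genes was close to that of protein-coding genes. *Malat1*, a nuclear RNA, had 269, 196 and 159.6 CPM in heavy and 1139, 893 and 970.3 CPM in total libraries (-2.29 ± 0.28). Host RNAs of small nucleolar RNAs, which are spliced in the nucleus and carry short reading frames, held 8 poor and 0 rich of 13 (median -1.56). *Gas5*, one of these hosts and a TOP transcript, had 47.0, 45.4 and 30.4 against 173, 192 and 247 CPM (-2.32 ± 0.61), and *Snhg6* (-2.84 ± 1.15) and *Snhg8* (-2.44 ± 0.81) were alike. In the list of neuronal or nuclear long non-coding RNAs, 7 of 21 were poor and 3 rich (median -0.39). *Meg3*, abundant in neurons, was poor but still at 1742, 1052 and 1726 CPM in heavy libraries (-0.64 ± 0.39), and *Tug1* (0.58 ± 0.22) and *Peg13* (0.54 ± 0.20) were rich.

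Cell surface and matrix genes with long coding regions were poor or uncalled. Protocadherins, adhesion proteins of the neuronal surface, had 17 poor and 0 rich of 67 (median -0.63), with *Pcdhga4* at -2.05 ± 0.79, and extracellular matrix genes 11 poor and 0 rich of 60 (median -0.81), with *Lamb2*, a laminin chain, at -2.18 ± 0.29. Many members of both lists had few reads, and over all genes tested 14% were poor. Oligodendrocyte markers had 2 rich and 2 poor of 6, from *Mbp*, myelin basic protein (1221, 1295 and 1331 against 721, 859 and 742 CPM, 0.73 ± 0.13), to *Mag* (-0.78 ± 0.38). Astrocyte markers had 3 poor and 0 rich of 6, with *Aldh1l1* (-1.64 ± 0.24) and *Slc1a3*, a glutamate transporter (-0.92 ± 0.21). Microglia markers had 4 rich genes, such as *Tmem119* (0.98 ± 0.09) and *C1qb* of complement (0.93 ± 0.18), and 1 poor gene, *Csf1r*, the longest of the list (-0.63 ± 0.13), among 7. Cortical excitatory markers had 0 calls among 5, and their summed level was 209.7, 94.1 and 68.1 CPM in heavy and 165, 92.0 and 87.4 CPM in total libraries, highest in both libraries of replicate 1. Endothelial markers had 0 calls among 5 at 6.69 to 22.6 CPM in sum, and choroid plexus markers 1 rich gene of 5, *Clic6* (0.70 ± 0.51), at 34.3 to 76.4 CPM in sum.

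**Figure D4:**
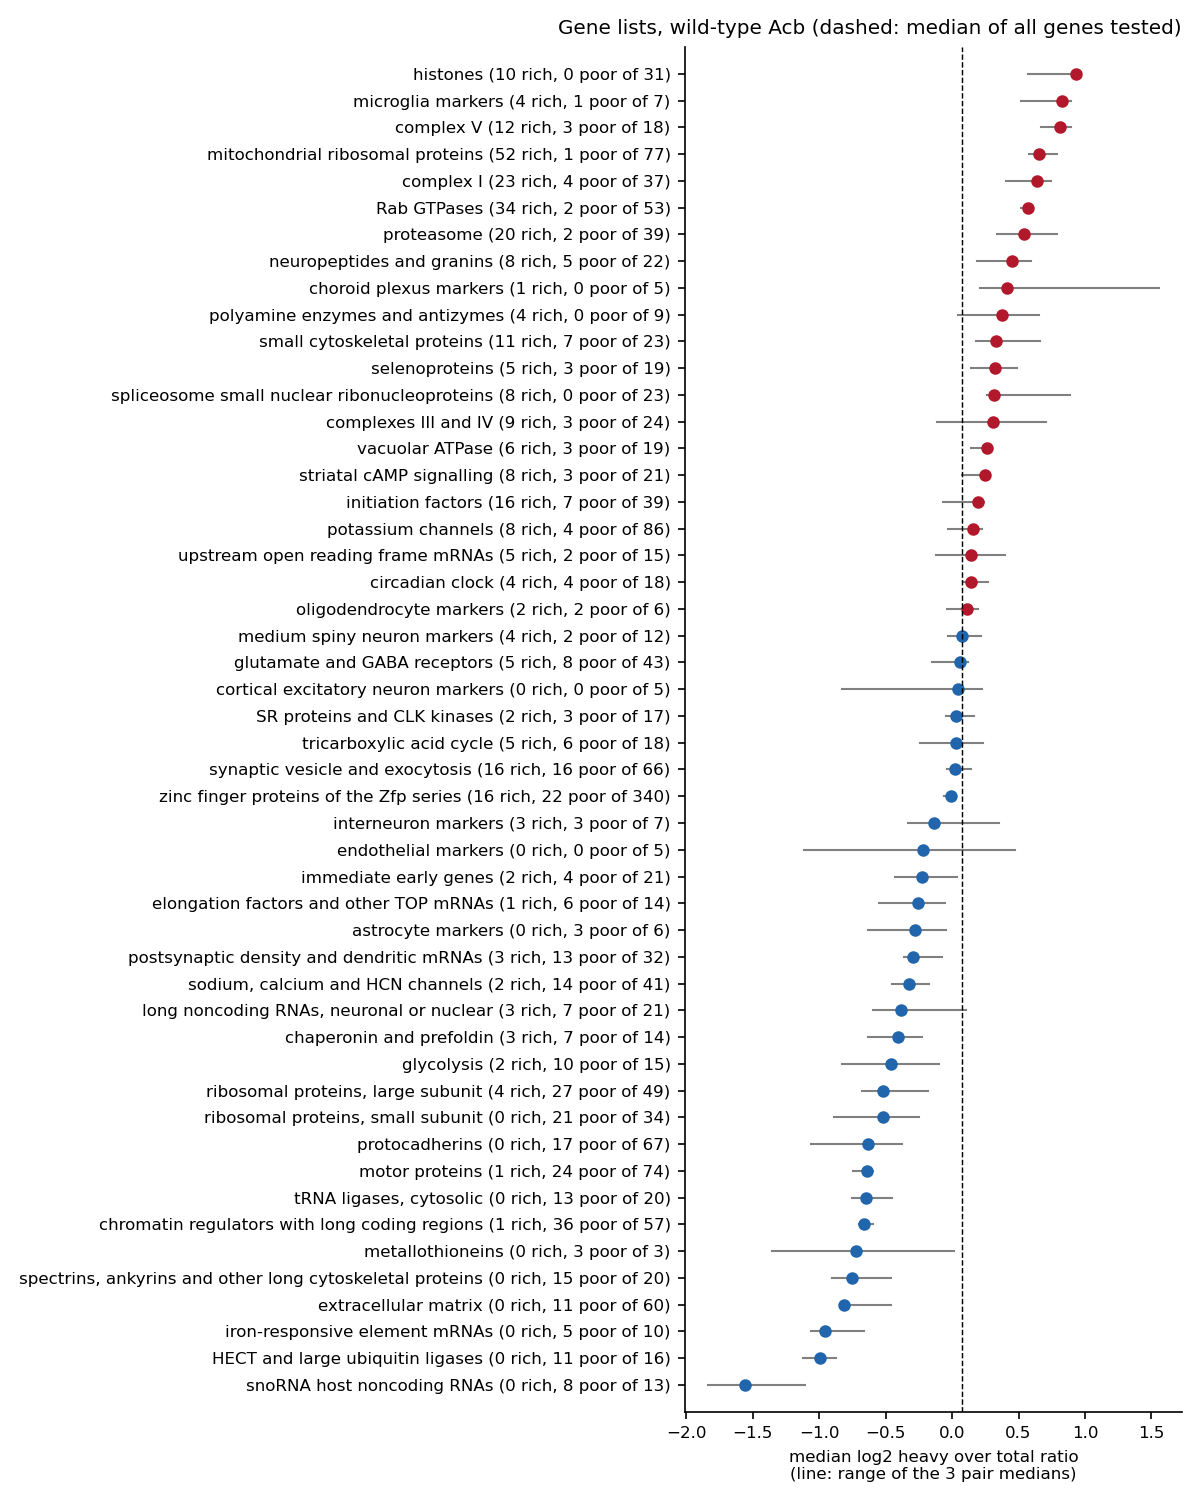
Median log2 heavy over total ratio of each of the 50 gene lists (dot, red above and blue below the median of all genes tested, which is the dashed line at 0.07) with the range of its medians in the 3 pairs (line). Histones, microglia markers and complex V are at the top, and snoRNA host RNAs, large ubiquitin ligases and iron-responsive mRNAs at the bottom, with counts of rich and poor members beside each name.

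Most list medians lay on the same side of 0 under every scaling tried. Scaling to the library total with *Bc1* turned the sign for the Zfp series, immediate early genes and the interneuron and endothelial markers, and scaling to the total without *Bc1* turned it for the tricarboxylic acid cycle, SR proteins and CLK kinases, synaptic vesicle genes and cortical markers. Counts of calls also moved when *Bc1* was kept in the total. Postsynaptic and dendritic mRNAs went from 3 rich and 13 poor to 8 and 5. Glutamate and GABA receptors went from 5 rich and 8 poor to 9 and 2. The small ribosomal subunit still had more poor than rich genes, 13 against 1, as did large ubiquitin ligases, 11 against 1.

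To see which lists stood apart from genes of like length, the trend of each library on protein length was removed and the fit repeated on 14976 genes with a known length. It left 1256 polysome-rich genes (8.39%) and 1826 polysome-poor genes (12.2%). The trend was a smooth curve that missed the drop at the shortest coding regions. Genes of 50 to 74 amino acids had a median of -0.32. Yet removal moved *Rps29* only from -2.41 to -2.43 and *Cox8a* from -0.71 to -0.86. Very short genes were thus not set against genes of like length. This bears on complexes III and IV, with a median of 93 amino acids, and on short ribosomal proteins. Lists of long proteins moved toward 0. The median became 0.04 for spectrins and ankyrins, -0.08 for chromatin regulators and -0.29 for large ubiquitin ligases. *Ank2* and *Ryr2* then had 0.08 and 0.02 and were no longer called. Ribosomal proteins moved away from 0, to -0.86 for the large subunit with 38 of 49 genes poor and to -0.93 for the small subunit with 31 of 33 genes with a length poor. Glycolysis reached -0.72 with 13 of 15 genes poor, tRNA ligases -0.53 with 10 of 20, the TOP list -0.65 with 12 of 14, and iron-responsive mRNAs -0.85. Mitochondrial ribosomal proteins kept a median of 0.25 with 23 rich and 6 poor, complex I 0.22 with 14 rich and 7 poor, complex V 0.41 with 10 rich and 5 poor, and histones 0.50 with 6 rich and 1 poor. The other respiratory list, complexes III and IV, fell to -0.01 with 5 rich and 6 poor, and the small ribonucleoproteins of the spliceosome to -0.03 with 5 rich and 2 poor. Initiation factors fell to -0.10 with 4 rich and 9 poor, and small cytoskeletal proteins to -0.06 with 5 rich and 10 poor. Rab GTPases came to 0.11. Postsynaptic and dendritic mRNAs changed sign, to 0.12 with 6 rich and 4 poor, although *Camk2a* stayed at -0.98. Glutamate and GABA receptors came to 0.14 with 8 rich and 3 poor. Sodium, calcium and HCN channels came to -0.04 with 2 rich and 3 poor. Motor proteins came to -0.19 with 3 rich and 13 poor, and *Kif3a* stayed at -2.46.

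**Figure D5:**
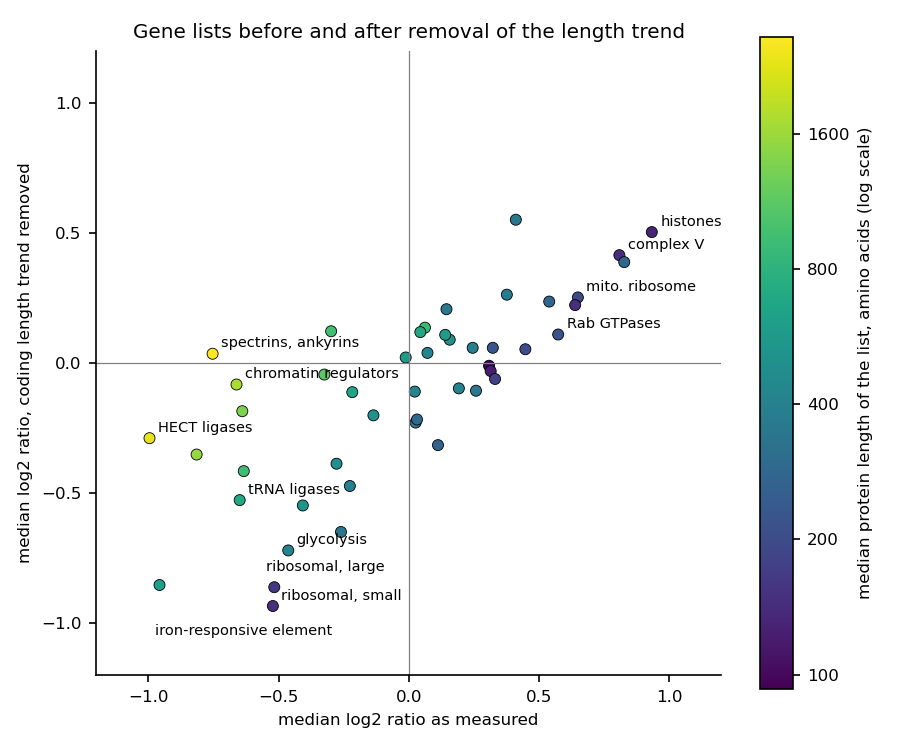
Median log2 heavy over total ratio of gene lists as measured (horizontal) and after removal of the length trend (vertical), colored by median protein length, for lists with at least 5 genes of known length. Ribosomal proteins lie near -0.52 on the horizontal and below -0.85 on the vertical axis, and spectrins and ankyrins near -0.75 and 0.04.

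Among called genes with a mean of 50 reads or more and groups that did not overlap, the largest rich ratio was that of *Schip1*, a low abundance RNA. *Schip1*, with 244 amino acids, had 9.12, 7.61 and 10.3 CPM in heavy and 4.31, 0.510 and 1.01 CPM in total libraries (2.57 ± 1.39), and *Sncg*, gamma-synuclein, 13.4, 10.9 and 14.1 against 5.23, 1.28 and 5.95 CPM (1.81 ± 0.99). At these levels a total library held few reads per gene, and the spread between pairs was wide. *Cradd*, an adaptor of cell death signaling, was steadier (23.1, 22.2 and 28.9 against 7.12, 6.64 and 9.61 CPM, 1.68 ± 0.07). On the poor side *Pbld1* (1.76, 0.206 and 0.262 against 9.54, 6.81 and 8.86 CPM, -3.97 ± 1.27) and *Lrrc17* (1.39, 1.34 and 0.562 against 9.48, 15.1 and 16.3 CPM, -3.64 ± 0.98) were low as well. *Prune2*, with 3084 amino acids, was 1 of the 5 rich genes of 1600 or more amino acids (155, 126 and 179.8 against 95.1, 92.6 and 109 CPM, 0.62 ± 0.16).

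Wild-type DS, the dorsal part of the striatum, was sequenced in the same way, 3 heavy and 3 total libraries, and served to ask where the Acb differed. The interaction of fraction and region passed the threshold for 7 of 16684 genes (0.042%), with 763 genes (4.57%) at an unadjusted p under 0.05 (edgeR, Benjamini-Hochberg). The length classes had medians of 0.59 in the Acb and 0.66 in the DS at 100 to under 200 amino acids, and -0.79 and -0.82 at 1600 and over. Of the 7 genes, 3 encode proteins of the large ribosomal subunit, *Rpl37* (log2 ratio -1.34 in the Acb and -0.31 in the DS), *Rpl41* (-2.40 and -1.42) and *Rplp2* (-0.47 and 0.47). The fitted ratio of *Bc1* was lower in the Acb (-3.74) than in the DS (-2.98). Its Acb pairs had -2.77, -3.36 and -5.18, so that pair 1 lay above the fitted DS value. The difference in *Bc1* did not pass without replicate 2 (adjusted p 0.115, edgeR with Benjamini-Hochberg adjustment). Without replicate 3 of each group only *Tmem38b* still passed. The median of the large subunit was -0.51 in the Acb and 0.14 in the DS, and that of the small subunit -0.52 and 0.01. In the pairs, the large subunit had -0.17, -0.48 and -0.67 in the Acb and 0.34, -0.28 and 0.42 in the DS, so that 1 DS pair lay within the range of the Acb. Without the replicate number as a block 0 genes were called, with 767 at an unadjusted p under 0.05 (edgeR).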

How the data were processed

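Whole lysates and heavy polysomal fractions of the wild-type Acb were sequenced as stranded poly(A) mRNA libraries. The authors deposited raw read counts per gene, made with CASAVA 1.8.2, TopHat2 2.0.13 and Bowtie2 2.2.3 on mm10 and with HTSeq 0.6.1p1. Counts of 24079 genes were used as deposited. Genes with at least 15 reads over the 6 libraries were tested with edgeR 4.0.16 (R 4.3.3; quasi-likelihood test, TMM, replicate number and fraction as terms), with Benjamini-Hochberg adjustment and a threshold of 0.05. The replicate number was a block because the input was kept from the samples that were loaded, but the pairing by number is inferred: deviations of same-numbered libraries from their group means correlated at 0.0197 to 0.0674 over 12189 genes, and those of other numbers at -0.0552 to 0.0395. P-values rest on a spread between pairs of libraries taken as a trend over genes of like abundance, not on each gene's own replicates. Named genes were the 10 largest ratios each way without overlap and with at least 50 reads on average, the 5 largest each way in each length class, the 2 highest and 2 lowest of each list, and a fixed list of genes, from which the text draws. The genes and lists were chosen with earlier results of these data known. Gene positions came from RefSeq (GRCm38.p6) and protein lengths from GENCODE M21. The length was that of the longest coding region among transcripts marked as APPRIS principal, or among the others where none was marked. DESeq2 1.42.0 and limma 3.58.1 served as alternatives; limma-voom and the bias-adjusted test were added after seeing the data. The code was tested on simulated data. Some genes and sequences are not reported here.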

Additional observations from a re-analysis of the deposited data

Results flagged for a closer look

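For 7 genes the heavy over total ratio differed between wild-type Acb and DS by the interaction term of edgeR's quasi-likelihood test (Benjamini-Hochberg). As Acb minus DS on the log2 scale, the difference was 2.53 for *Tmem38b*, 1.31 for *Cit*, -0.76 for *Bc1*, -1.03 for *Rpl37*, -0.98 for *Rpl41*, -0.94 for *Rplp2* and -6.44 for *Calcr*. The 3 total DS libraries held 0 reads of *Calcr*, so its fitted value is no bound and no fold is given. *Tmem38b* had overlapping heavy and total libraries in the Acb. Without the replicate number as a block 0 genes passed, and without replicate 3 of each group 1 gene did.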

How the results depend on the processing

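The main limits are 3 pairs of pooled samples, p-values that rest on a spread shared between genes, and a scaling that the data do not fix. Without the replicate block 2092 genes were rich and 2066 poor, so the pairing moved neither count by over 1.5 times. Scaling to the library total with *Bc1* gave 3787 rich and 1212 poor genes, with 1124 and 309 at a log2 ratio of 1 or more in size. Removal of the length trend gave 1256 rich genes, and 84 rich and 357 poor at that size; it turned *Ank2* to 0.0759, *Ryr2* to 0.0184, *Pdyn* to -0.383 and *Scn2b* to -0.0428. Leaving out 1 replicate gave 1390 to 2023 rich and 1481 to 2011 poor genes, lowest without replicate 1. The median under 100 amino acids minus that of all genes was -0.0965, with -0.331 to 0.0689 when 1 replicate was left out, the highest without replicate 3. The interaction with region gave 7 genes, 0 without the replicate block, and 1 to 18 with 1 replicate left out. Why these values moved was not tested.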
